A study of Rattus norvegicus with 8 samples.

Results

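The 7 genes described here encode enzymes and carriers that handle fructose, sorbitol and myo-inositol in the kidney: Khk, Sord, Miox, Slc5a3, Slc2a5, Slc5a11 and Impa1. They were chosen by symbol, through the RefSeq accession that the array gives for each probe, and all 7 were among the 12703 genes with a symbol that could be tested. Transcripts were measured in kidneys of male SD rats, an outbred laboratory strain (Sprague-Dawley), on 8 single-colour Agilent arrays. The 4 APL samples came from rats given APL at 150 mg/kg for 4 weeks, and the 4 Control samples from rats given 0.5% methylcellulose, a vehicle, for 4 weeks. All were 10 weeks old by their labels. APL is read as allopurinol, an inhibitor of urate formation, because the series title names allopurinol as the agent that produced the fibrosis model. The title speaks of renal tubules and the labels of kidney, and nothing in the labels says that replicates were separate animals, so p-values measure the spread between these samples, which may be technical.

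Fructose enters proximal tubule cells through carriers of the GLUT family and is phosphorylated by ketohexokinase, after which further enzymes, triokinase among them, turn it into intermediates of glycolysis. The polyol pathway makes fructose inside the cell: aldose reductase reduces glucose to sorbitol, and sorbitol dehydrogenase oxidises sorbitol to fructose. Myo-inositol is an organic osmolyte and the head group of phosphoinositide lipids. It is imported by sodium-coupled carriers, made from phosphorylated glucose, and broken down almost only in the kidney by Miox, whose product is passed on along the glucuronate-xylulose route.

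Signals are given below as relative signal, the processed signal of a probe divided by the 75th percentile of all probes on its array. That percentile lay between 378 and 497 on the APL arrays and between 272 and 307 on the Control arrays, so the APL arrays were brighter, and the median of all log2 fold changes was -0.03 with this scaling and 0.61 without it. All fold changes are relative to it. No spot was saturated. Kidney markers were present: all 10 proximal tubule markers were tested, as were all 5 of the thick ascending limb. Of 5 hepatocyte markers only Apoa2 could be tested, and Alb, Ttr, Cps1 and Tat could not. Relative signals of different probes are not comparable as amounts of RNA, so genes are compared only by how they differed between the groups.

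Of the 7 genes, 6 were lower in APL kidneys at an adjusted p under 0.05 (limma, Benjamini-Hochberg over 21413 genes or unnamed transcripts) and 0 were higher. Over all features tested, 23.5% were called: 11.5% of all tested were lower and 11.9% higher. The 4 APL values lay wholly below the 4 Control values for these 6 genes, which was so for 15.9% of all features. The groups lay apart in either direction for 29.9% of features, and with APL above Control for 13.9%. Slc5a3 was the gene not called. The median log2 fold change of the 7 genes was -3.30, against -0.03 for all features. Each gene was well above background on all 8 arrays with the probe used.

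**Figure D1:**
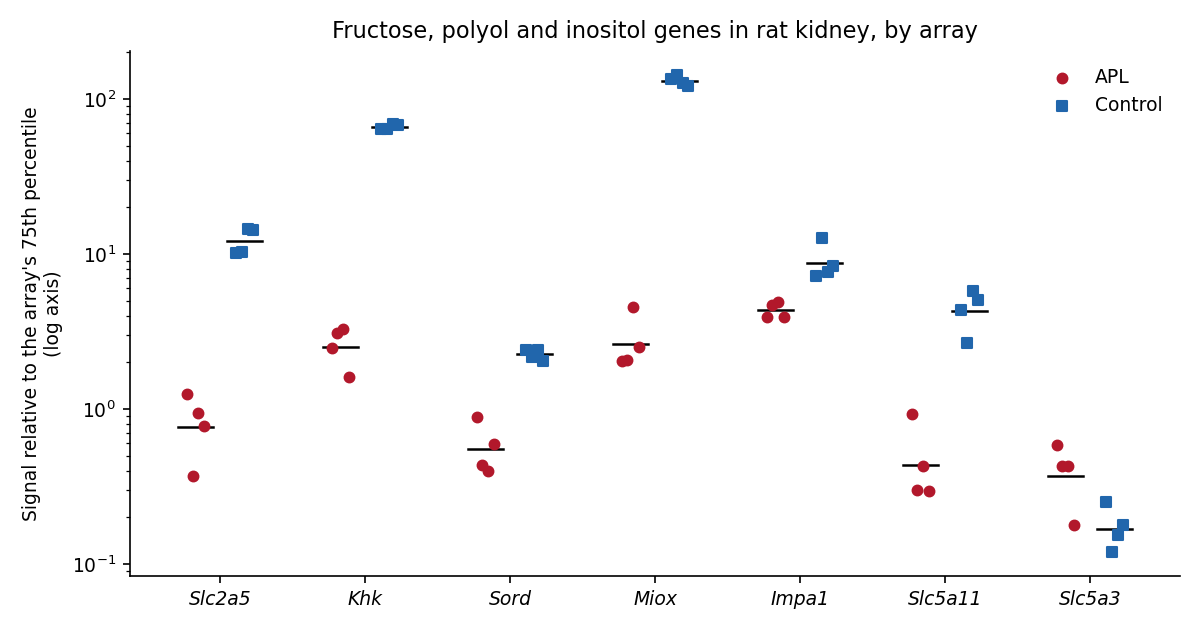
Relative signal of the 7 genes on each array, on a log axis, with 1 point per array (red circles APL, blue squares Control) and a black line at the mean of the log2 values. The APL points lie below all Control points for Slc2a5, Khk, Sord, Miox, Impa1 and Slc5a11, and they overlap for Slc5a3.

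Fructose transport and breakdown were represented by Slc2a5 and Khk. Slc2a5 encodes GLUT5, the carrier selective for fructose. Its relative signal was 1.25, 0.371, 0.939 and 0.772 in APL replicates 1 to 4, against 10.1, 10.2, 14.6 and 14.4 in Control replicates 1 to 4. The groups did not overlap, and APL replicate 2 was the lowest. The mean was 15.9-fold lower in APL kidneys, a log2 fold change of -3.99 ± 0.38 (moderated SE, n = 4 each, limma adjusted p = 0.000313). Khk encodes ketohexokinase, whose relative signal was 2.46, 3.11, 3.29 and 1.60 in APL replicates 1 to 4, against 64.5, 63.7, 68.6 and 68.5 in Control replicates 1 to 4. The Control arrays lay within 1.08-fold of each other and the APL arrays within 2.06-fold. Khk was 26.3-fold lower in APL kidneys, with a log2 fold change of -4.72 ± 0.26 (limma adjusted p = 2.59e-05). It ranked 154 from the lowest among the log2 fold changes of the 12703 genes with a symbol. The probe is assigned to 1 Khk transcript, and the isoforms were not measured apart.

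Other genes of fructose breakdown fell with them. Of 10 tested entries of this list, which holds Khk and Slc2a5, 7 were lower and 1 was higher, with a median log2 fold change of -2.13. These are 70% and 10%, against 11.5% lower and 11.9% higher over all features. Tkfc, the triokinase that phosphorylates glyceraldehyde, fell by 4.18 ± 0.53 on the log2 scale (limma adjusted p = 0.00117). Its value was -2.62 and -2.64 under the settings that used normexp, a model-based background correction. Glyctk, a glycerate kinase, fell by 2.66 ± 0.19, Mlxipl, the sugar-responsive transcription factor ChREBP, by 2.28 ± 0.34, and Tpi1, triosephosphate isomerase, by 0.85 ± 0.18 on the log2 scale. With normexp background correction and percentile scaling the call of Mlxipl was lost (-0.54, limma adjusted p = 0.643). Tpi1 lost its call there (adjusted p = 0.0687), without scaling between arrays (-0.21, adjusted p = 0.465) and with the replicate number as a block (adjusted p = 0.0532).

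The gene that rose was Slc2a2, which encodes GLUT2, a basolateral carrier of glucose and fructose. On this probe the relative signal was 5.30, 7.48, 11.4 and 5.33 on the APL arrays, against 1.08, 2.30, 2.25 and 1.65 on the Control arrays. The groups did not overlap, and the log2 fold change was 2.01 ± 0.35 (limma adjusted p = 0.00551). Of the other carriers on the list, Slc2a9 had a log2 fold change of -1.65 ± 1.40 and Slc2a12 of -0.28 ± 0.35, neither past the threshold. A second, dimmer probe of Slc2a12 gave -1.89, so its probes disagreed.

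Sorbitol handling was represented by Sord, sorbitol dehydrogenase, which also oxidises xylitol. Sord had a relative signal of 0.884, 0.438, 0.4004 and 0.595 in APL replicates 1 to 4, against 2.40, 2.18, 2.39 and 2.05 in Control replicates 1 to 4. Every APL array was below every Control array, and APL replicate 1 was the highest of its group. Sord was 4.08-fold lower in APL kidneys, with a log2 fold change of -2.03 ± 0.28 (limma adjusted p = 0.00168).

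Akr1b1, the aldose reductase that makes sorbitol, moved the other way. The relative signal of Akr1b1 was 0.285, 0.358, 0.331 and 0.914 on the APL arrays, against 0.0708, 0.102, 0.0571 and 0.0596 on the Control arrays. Both groups were well above background on every array and did not overlap, and APL replicate 4 was the highest. The log2 fold change was 2.57 ± 0.40 (limma adjusted p = 0.00316), or 1.52 and 1.01 under the normexp settings. The gene was called under each setting that used all 8 arrays and in each fit that left out 1 array. Of the 4 tested genes on the polyol list, which holds Sord, Akr1b1 was the 1 higher and the other 3 were lower. Over all features 11.9% were higher and 11.5% lower. The related reductases Akr1b8 and Akr1b10 had log2 fold changes of -2.38 ± 0.62 and -4.72 ± 0.50. Akr1b10 was well above background on 1 of 4 APL arrays, and its value was -0.45 with normexp and percentile scaling (limma adjusted p = 0.684). Akr1b8 lost its call there (adjusted p = 0.187), without scaling between arrays (adjusted p = 0.0622) and without Control replicate 2 or 3 or APL replicate 1, 2 or 4. Akr1b7 was on the array but did not pass the detection filter.

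Inositol breakdown begins with Miox, myo-inositol oxygenase, whose transcript is enriched in the proximal tubule. Miox had a relative signal of 2.04, 2.07, 4.54 and 2.52 in APL replicates 1 to 4, against 134.6, 143.8, 126.9 and 121.9 in Control replicates 1 to 4. APL replicate 3 was the highest of its group and still far below each Control array. Miox was 49.9-fold lower in APL kidneys, the largest difference among the 7 genes, with a log2 fold change of -5.64 ± 0.29 (limma adjusted p = 2.08e-05). Within slide 1 the difference was -6.08 and within slide 2 it was -5.20.

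Genes of inositol breakdown and the glucuronate-xylulose route were mostly lower. This list holds Miox and Sord, and also genes that do not lie on the route after Miox: Rgn, Gulo, Ugdh and Ugp2. Of its 10 tested genes, 8 were lower and 0 higher, with a median log2 fold change of -2.01. That is 80% lower, against 11.5% of all features. Akr1a1, which reduces glucuronate to gulonate, fell by 1.74 ± 0.22 on the log2 scale. Cryl1, gulonate dehydrogenase, fell by 2.40 ± 0.26 and Dcxr, which reduces xylulose to xylitol, by 3.38 ± 0.28. Xylb, xylulokinase at the end of the route, fell by 1.98 ± 0.20. Rgn, regucalcin, a lactonase on the side branch to ascorbate, had relative signals of 0.850, 0.359, 0.500 and 0.423 on the APL arrays, against 57.9, 62.2, 53.3 and 69.5 on the Control arrays. It was 119.8-fold lower (limma adjusted p = 1.21e-05). Ugdh, which makes UDP-glucuronate, fell by 1.52 ± 0.35, with its call lost without scaling between arrays (-0.88, limma adjusted p = 0.113), with normexp and percentile scaling (-0.90, adjusted p = 0.141) and without APL replicate 4 (adjusted p = 0.0537). Gulo, the last enzyme of ascorbate synthesis in rodents, and Ugp2, which makes UDP-glucose, had log2 fold changes of -0.42 ± 0.21 and -0.75 ± 0.30, neither past the threshold.

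The 250 bases before the annotated start of Miox, Cryl1 and Dcxr are shown because these genes of 1 route fell together and their RefSeq start lies at the edge of the gene. They come from RefSeq on the rat build GRCr8, at chr7:122284410-122284659 on the plus strand, chr15:35661564-35661813 on the minus strand and chr10:106506620-106506869 on the minus strand, and read 5′ to 3′ along the gene. The letters CAAAGTCCA (an HNF4 site) and CACGTG (an E-box) were searched on both strands and would stand in capitals. Windows and motifs were chosen after the values were seen.
Miox: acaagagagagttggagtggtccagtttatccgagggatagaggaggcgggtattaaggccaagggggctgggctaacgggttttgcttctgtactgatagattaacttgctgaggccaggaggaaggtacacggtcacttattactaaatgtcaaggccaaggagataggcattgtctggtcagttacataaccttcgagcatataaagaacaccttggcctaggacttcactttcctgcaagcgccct
Cryl1: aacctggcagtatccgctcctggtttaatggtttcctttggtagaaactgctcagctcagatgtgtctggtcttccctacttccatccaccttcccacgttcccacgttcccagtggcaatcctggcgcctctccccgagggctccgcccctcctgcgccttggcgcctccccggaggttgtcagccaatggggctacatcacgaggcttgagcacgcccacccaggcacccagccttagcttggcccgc
Dcxr: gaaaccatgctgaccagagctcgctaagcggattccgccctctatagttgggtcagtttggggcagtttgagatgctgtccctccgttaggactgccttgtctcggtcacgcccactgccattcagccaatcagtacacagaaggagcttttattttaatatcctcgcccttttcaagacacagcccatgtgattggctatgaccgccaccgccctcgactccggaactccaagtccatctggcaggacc
None of the 3 windows held either motif. Among all 33469 RefSeq windows of this length, 0.338% held CAAAGTCCA and 5.59% CACGTG. RefSeq windows were given for 5 of the 7 genes, and none of the 5 held either motif. The transcript of Hnf4a, a transcription factor of the proximal tubule, had a log2 fold change of -2.44 ± 0.32 (limma adjusted p = 0.00126). The absence of these letters from a window says nothing about binding, which was not measured.

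Inositol synthesis was represented by Impa1, the monophosphatase that releases free myo-inositol. Its relative signal was 3.94, 4.70, 4.86 and 3.92 in APL replicates 1 to 4, against 7.24, 12.8, 7.68 and 8.34 in Control replicates 1 to 4. The groups did not overlap, and Control replicate 2 was the highest array. Impa1 was 2.02-fold lower in APL kidneys, with a log2 fold change of -1.02 ± 0.24 (limma adjusted p = 0.0184), the smallest of the 6 decreases. This call rested on the scaling between arrays: unscaled processed signals were 1827, 1778, 2416 and 1887 in APL replicates 1 to 4, against 2218, 3572, 2087 and 2560 in Control replicates 1 to 4, and the log2 fold change without scaling was -0.38 (adjusted p = 0.250). Without APL replicate 4 it was -0.97 (adjusted p = 0.0517).

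Isyna1, the synthase that makes inositol phosphate from phosphorylated glucose, rose. Its relative signal was 5.33, 6.53, 7.16 and 6.98 on the APL arrays, against 0.772, 1.44, 2.78 and 0.615 on the Control arrays. The log2 fold change was 2.46 ± 0.46 (limma adjusted p = 0.00725). Isyna1 was called under each setting that used all 8 arrays and in each fit that left out 1 array. Impa2, the second monophosphatase, had a log2 fold change of 1.04 ± 0.37 that did not pass (adjusted p = 0.0805). Bpnt1, a related bisphosphate phosphatase, was lower by 1.59 ± 0.44 on the log2 scale (adjusted p = 0.0343), a call lost without scaling between arrays, with normexp and percentile scaling, with slide or replicate number as a block, and without Control replicate 1, 3 or 4 or APL replicate 2, 3 or 4. Across the 9 tested genes of inositol synthesis and transport, which hold Impa1, Slc5a11 and Slc5a3, 1 was higher and 3 were lower, with a median log2 fold change of 0.41. The shares are 11.1% higher and 33.3% lower, against 11.9% and 11.5% of all features.

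The sodium-coupled inositol carriers differed. Slc5a11 encodes SMIT2, an apical carrier of the proximal tubule. Slc5a11 had a relative signal of 0.932, 0.302, 0.427 and 0.296 in APL replicates 1 to 4, against 4.33, 2.65, 5.76 and 5.03 in Control replicates 1 to 4. APL replicate 1 was the highest of its group and below every Control array. Slc5a11 was 9.83-fold lower in APL kidneys, with a log2 fold change of -3.30 ± 0.43 (limma adjusted p = 0.00126). A second probe of the gene was far dimmer, with relative signals of 0.154, 0.0107, 0.0330 and 0.0110 on the APL arrays, against 0.217, 0.00481, 0.632 and 0.0662 on the Control arrays. It was well above background on 3 of 4 arrays of each group, its groups overlapped, and its log2 fold change was -1.56 ± 1.64. With the mean of both probes, Slc5a11 was no longer called (-2.43, adjusted p = 0.0999).

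Slc5a3 encodes SMIT1, the carrier that loads medullary and other cells with inositol under hypertonic conditions. Its relative signal was 0.581, 0.427, 0.427 and 0.179 in APL replicates 1 to 4, against 0.249, 0.120, 0.153 and 0.178 in Control replicates 1 to 4. APL replicates 1 to 3 lay above every Control array, and APL replicate 4 lay below Control replicate 1. The log2 fold change was 1.14 ± 0.40 and did not pass (limma adjusted p = 0.0780). It passed without APL replicate 4 (1.49, adjusted p = 0.0193) and without scaling between arrays (1.77, adjusted p = 0.0134). Slc2a13, the proton-coupled inositol carrier, had a log2 fold change of -0.69 ± 0.94.

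**Figure D2:**
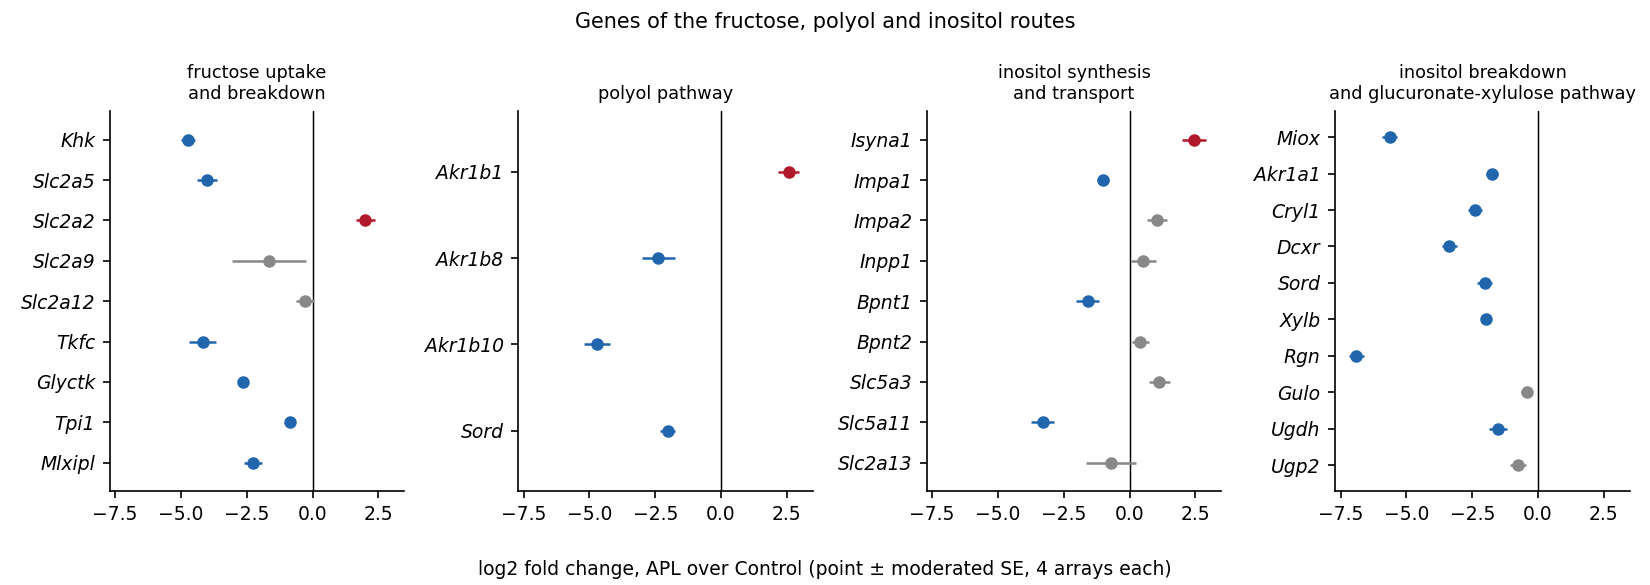
Log2 fold changes of APL over Control for genes of the fructose, polyol, inositol synthesis and transport, and inositol breakdown lists, as points with the moderated standard error (n = 4 each). Blue points were called lower, red points called higher and grey points not called; Akr1b1, Isyna1 and Slc2a2 are the red points, and no gene of the breakdown list lies right of 0.

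Whether neighbouring genes changed by different amounts was tested on the difference of their log2 signals on each array, a quantity from which the array scaling drops out. For each of 4 pairs the differences were compared between the groups with an exact two-sided permutation test over the 70 splits of the arrays, which can give no p below 0.0286. Slc5a11 minus Slc5a3 averaged 0.23 ± 0.59 in APL kidneys and 4.66 ± 0.48 in Control kidneys (SD, n = 4 each). The apical carrier thus changed by -4.43 on the log2 scale relative to Slc5a3 (exact permutation p = 0.0286, 0.0381 adjusted over the 4 pairs). The Slc5a11 groups lay too far apart, against the range of Slc5a3, for any other p. The test on this pair therefore adds nothing to the results of the single genes. Sord minus Akr1b1 averaged 0.40 ± 0.93 in APL kidneys and 4.997 ± 0.41 in Control kidneys, a change of -4.60. Every APL array lay below every Control array for Sord and above every Control array for Akr1b1. The permutation test on this pair could therefore give only its lowest exact p, 0.0286, and adds nothing to the results of the single genes. The change was -3.79 within slide 1 and -5.42 within slide 2. Miox minus Impa1 averaged -0.72 ± 0.47 in APL kidneys and 3.91 ± 0.31 in Control kidneys, a change of -4.62, also with an exact p of 0.0286. That p too was fixed by the single genes, since the Miox groups lay further apart than the whole range of Impa1. Slc2a5 minus Khk averaged -1.72 ± 0.97 in APL kidneys and -2.45 ± 0.24 in Control kidneys. That change of 0.73 did not pass (exact permutation p = 0.200), though it was 1.17 and passed without APL replicate 2 (adjusted exact p = 0.0286).

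**Figure D3:**
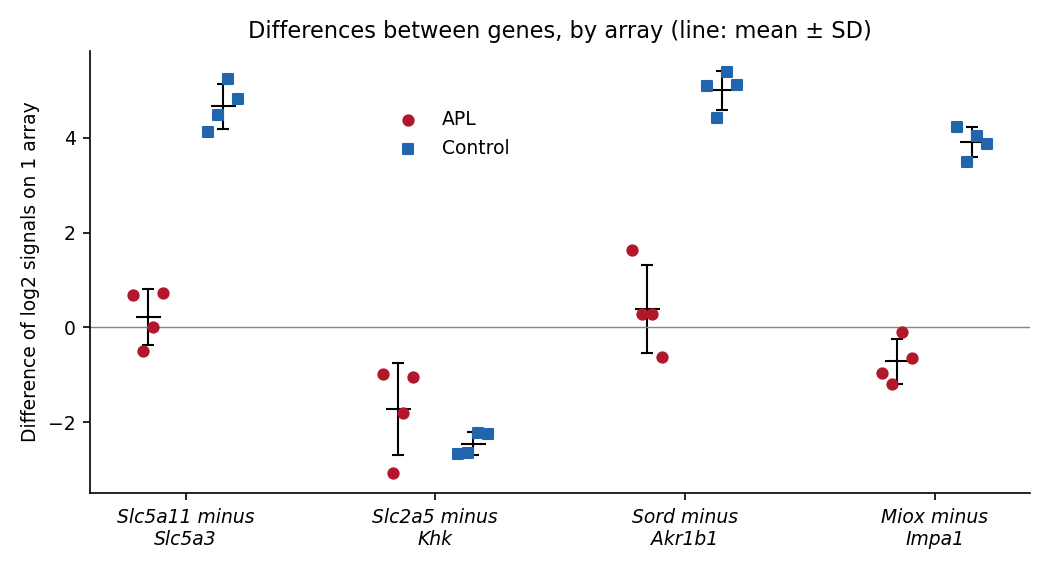
Difference of the log2 signals of the named pair on each array (red circles APL, blue squares Control), with the mean ± SD. The groups lie apart for Slc5a11 minus Slc5a3, Sord minus Akr1b1 and Miox minus Impa1, and overlap for Slc2a5 minus Khk; only the distance between the groups can be read, since each gene has its own probe.

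Each slide, a scan identifier in the file headers, held 2 arrays of each group, and the 7 genes kept their direction within each. Within slides 1 and 2 the log2 difference was -4.54 and -4.90 for Khk, -3.90 and -4.09 for Slc2a5, -1.88 and -2.18 for Sord, -2.67 and -3.92 for Slc5a11, -1.16 and -0.87 for Impa1, and 1.53 and 0.74 for Slc5a3. In limma fits of 2 arrays against 2, 2 of the 7 genes were called within slide 1 (Khk and Miox) and 4 within slide 2 (Khk, Miox, Slc2a5 and Slc5a11). Sord did not pass within either slide (adjusted p = 0.117 and 0.0821), nor did Impa1 (adjusted p = 0.210 and 0.237).

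Markers of several cell types, the proximal tubule among them, differed as well. Over all features 11.5% were lower and 11.9% higher. Each summed signal here is weighted towards its brightest probes, among them Umod, Aqp2 and Col1a1. A sum therefore does not show that every marker of a cell type moved. Of the 10 proximal tubule markers, 7 were lower and 1 was higher, with a median log2 fold change of -2.32. The higher marker was Slc5a2 (3.04 ± 0.66, limma adjusted p = 0.0140), whose groups did not overlap. Slc4a4 (1.42 ± 0.51, limma adjusted p = 0.0795) and Cubn (-0.53 ± 0.22, limma adjusted p = 0.115) were not past the threshold. The summed relative signal of the 10 was 52.1 to 80.9 on the APL arrays, against 322.6 to 400.1 on the Control arrays. Of the 6 markers of the proximal straight tubule, 4 were lower and 0 higher, with a summed signal of 11.8 to 19.4 on the APL arrays, against 350.5 to 403.3 on the Control arrays. The collecting duct principal cell markers summed to 4.05 to 13.9 on the APL arrays, against 1.67 to 4.34 on the Control arrays, with Aqp2 the only 1 of 5 tested that was called. Of 5 macrophage markers 2 were higher, Cd68 and Lyz2, while Adgre1 and Csf1r had log2 fold changes of -0.34 and -0.24, not past the threshold. Their summed signal was 14.2 to 16.5 on the APL arrays, against 3.66 to 9.84 on the Control arrays. Of 5 markers of the thick ascending limb 3 were lower (Umod, Cldn16 and Egf), with a summed signal of 1.77 to 19.0 on the APL arrays, against 42.6 to 60.9 on the Control arrays. Of 4 fibroblast markers tested Col1a1 was the 1 called, higher (2.12 ± 0.38). Col1a2, Pdgfrb and Dcn had log2 fold changes of 0.62, 0.22 and -0.22, none past the threshold. The summed signal of the 4 was 12.1 to 32.9 on the APL arrays, against 4.59 to 7.24 on the Control arrays. Of 5 endothelial markers 4 were lower, with a summed signal of 0.523 to 0.838 on the APL arrays, against 5.18 to 7.73 on the Control arrays. Among these, Emcn was well above background on 1 of 4 APL arrays, and its groups overlapped. Pecam1 lost its call with normexp and percentile scaling (-0.87, limma adjusted p = 0.407). Podocyte markers gave 1 higher and 1 lower of 5. None was called among the 5 intercalated cell, 2 distal convoluted tubule and 2 T cell markers tested. The part of all these markers in the results for the 7 genes was not tested. In whole tissue, fewer cells of a type and less RNA per cell cannot be told apart.

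Inositol phosphate and phosphoinositide enzymes make and read the lipid and soluble forms of inositol. Of 37 tested, 5 were higher and 2 lower, with a median log2 fold change of 0.23. The 18.9% called was below the 23.5% of all features. Among the called genes, Plce1, a phospholipase C, had a log2 fold change of 3.84 ± 1.04, but its signal lay under the floor on 3 Control arrays. A higher floor of 0.02 gave 2.53. Both normexp settings ended its call, at 1.32 with percentile scaling and 0.66 with quantile normalization. Itpr3, an inositol trisphosphate receptor, had 3.06 ± 0.63, or 1.53 with normexp and percentile scaling and 0.80 with normexp and quantile normalization, where its call was lost (limma adjusted p = 0.0583). Plcg2, another phospholipase C (2.26 ± 0.69), and Itpkb, an inositol trisphosphate kinase (2.19 ± 0.66), were near the threshold (limma adjusted p = 0.0474 and 0.0470). The signal of Plcg2 also lay under the floor on 3 Control arrays. With a floor of 0.02 it was 0.86 and not called (limma adjusted p = 0.221). Under normexp it was 0.83 with percentile scaling and 0.19 with quantile normalization, not called in either. Plce1 and Plcg2 were each well above background on 1 Control array, and the groups overlapped for Plce1, Plcg2 and Itpkb. The calls of Plce1, Plcg2 and Itpkb were lost in at least 6 of the 8 fits that left out 1 array. Of 8 tested genes of the osmolyte and tonicity response, 2 were higher, Akr1b1 and the water channel Aqp2 (1.93 ± 0.48), and 1 was lower, the betaine carrier Slc6a12. The shares are 25% higher and 12.5% lower, against 11.9% and 11.5% of all features. Aqp2 lost its call with normexp and percentile scaling (1.55, limma adjusted p = 0.0902), with the replicate number as a block (adjusted p = 0.0647) and in 4 of the 8 fits that left out 1 array. Slc6a12 had a log2 fold change of -0.90 ± 0.23, or 0.22 with normexp and percentile scaling, and its call was lost in 5 of the 8 fits that left out 1 array. Nfat5, the transcription factor of this response, had a log2 fold change of 1.01 ± 0.48 (1.69 with a second probe), and Slc6a6, the taurine carrier, of -0.27 ± 0.25. Neither was past the threshold with the probe used. With the mean of all kept probes, 3 genes of this list were higher, and Nfat5 was its only tested gene with a second kept probe.

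The spread between arrays was larger in APL than in Control kidneys for 6 of the 7 genes, against 44.2% of all features. That share was not matched for signal level. How far the spread goes with the lower signal of most of these genes in APL kidneys was not tested. The SD of the log2 signal was 0.47 for Khk, 0.54 for Miox and 0.52 for Sord in APL kidneys, against 0.06, 0.10 and 0.11 in Control kidneys. Impa1 was the exception, at 0.16 in APL kidneys and 0.37 in Control kidneys.

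Genes whose pattern over the 8 arrays was most like that of each of the 7 were found by the root mean square difference of centred log2 signals, among 10351 other genes well above background on every array. Each gene was centred over all 8 arrays, so the difference between the groups is part of the pattern. Genes with a similar fold change therefore come out near, and likeness within the groups was not measured apart. For Khk these were Slc16a4, a monocarboxylate carrier (0.18), Acy1, an aminoacylase (0.32), and Akr1c12l1 (0.32). For Miox they were Naglt1 (0.40), the glutathione transferase Gsta2 (0.44) and Ttc36 (0.46), and for Slc2a5 Cyp4a3 (0.20), the organic cation exporter Slc47a1 (0.30) and C8h11orf54 (0.34). Those nearest to Sord were Arhgap24 (0.14), Lap3 (0.18) and Gpd1, a glycerol phosphate dehydrogenase (0.22). Slc25a30 (0.35), the endothelial marker Pecam1 (0.35) and Ihh (0.39) were nearest to Slc5a11. Art5 (0.14), Clcn6 (0.15) and Gosr1 (0.15) were nearest to Impa1, and Mthfd2 (0.21), Grip1 (0.29) and P2ry2 (0.31) to Slc5a3.

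**Figure D4:**
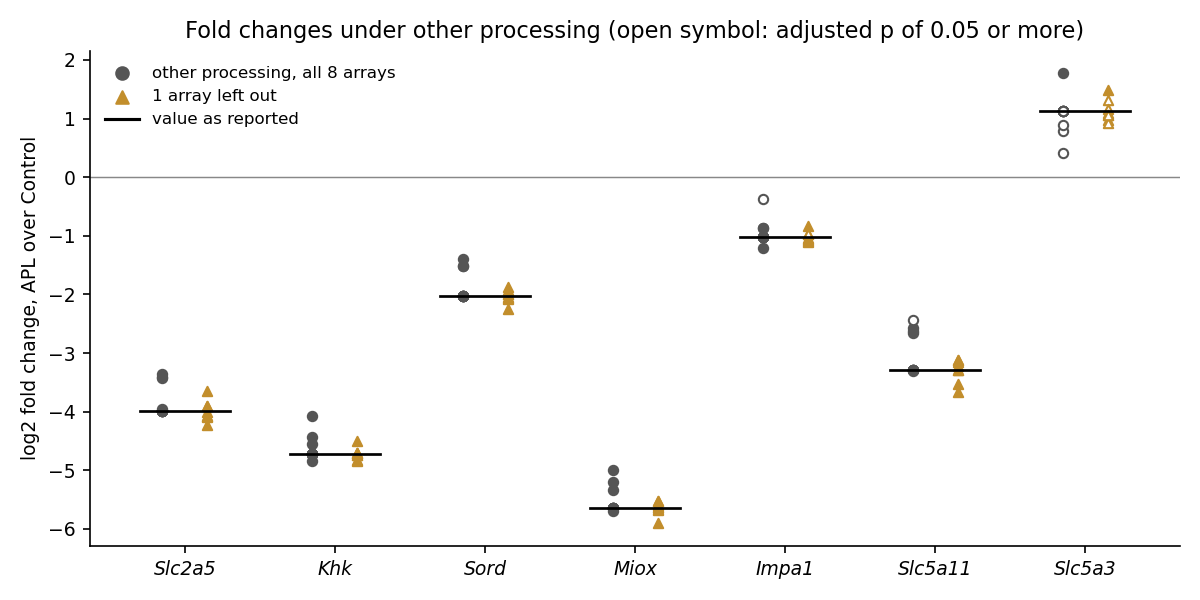
Log2 fold change of APL over Control for the 7 genes as reported (black lines), under other processing of all 8 arrays (grey circles) and with 1 array left out (ochre triangles). Open symbols have an adjusted p of 0.05 or more: all but 1 of each kind for Slc5a3, 1 circle for Slc5a11, and 1 circle and 1 triangle for Impa1.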

How the data were processed

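Total RNA was labelled with Cy3, and arrays were read with Agilent Feature Extraction 10.5.1.1, per the file headers, which name the design's build rn4. The deposited scanner files give each spot's intensity, the intensity around it, and a processed signal already corrected by that software for background and spatial trend. The deposited series table holds log2 values. Set against the scanner values, it is log2 of the processed signal over the array's 75th percentile, centred on each probe's median (91.9% to 95.5% of values per array within 0.01, correlations from 0.9996, column medians from -0.136 to 0.0771); the source of the rest is unknown.

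Control spots and spots with an outlier flag (297 to 600 of 42877 per array) were left out, and spots of a probe were averaged. Signals were divided by the 75th percentile, floored at 0.005 and log2-transformed. Probes well above background on at least 4 arrays were kept (24336 of 30367), and the brightest probe represented a gene. Symbols came from RefSeq (GRCr8) by accession, for 18643 probes. The test was limma 3.58.1 (R 4.3.3), tested on simulated data. Errors are moderated standard errors unless an SD is named; the number of arrays limits precision.

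The genes, lists and tests were chosen with earlier results of these data known, and the form in which the slide fits and list counts are given was settled after their results were seen. Named are the 7 genes, the called genes of the short lists, the 4 called genes of the long one with the largest absolute log2 fold change, and the 3 nearest in pattern to each of the 7; some results for genes of these lists are not reported here. Each slide held 2 arrays of each group. Samples were treated as unpaired. Deviations of same-numbered samples from their group means correlated at -0.0159 to 0.0479, and those of differently numbered samples at -0.0835 to 0.0912. These values show no sign of pairing by replicate number, but they cannot exclude it.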

Additional observations from a re-analysis of the deposited data

How the results depend on the processing

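Khk, Miox, Slc2a5 and Sord kept their direction and their call under each of the 11 alternatives that use all 8 arrays and in each of the 8 fits that leave out 1 array. Impa1 was not called without scaling (-0.38), Slc5a11 not with the mean of its probes (-2.43), and Slc5a3 was called without scaling (1.77). With 1 array left out, Impa1 ran from -1.11 to -0.84, Slc5a3 from 0.92 to 1.49, and Slc2a5 minus Khk from 0.48 to 1.17; that pair passed with normexp and the 75th percentile at 1.42. Within slides 1 and 2, Miox was -6.08 and -5.20, and Sord minus Akr1b1 was -3.79 and -5.42. Fits within 1 slide (2 arrays against 2) called 1027 genes on slide 1 and 669 on slide 2, and several of the 7 lost their call: on slide 1 Sord (adjusted p = 0.117), Slc2a5 (0.0668), Slc5a11 (0.127) and Impa1 (0.210), and on slide 2 Sord (0.0821) and Impa1 (0.237). These fits have fewer samples and were recorded as values in the comparison of settings after their results were seen. The cause of these shifts was not tested.

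Called genes numbered 5027 (2555 higher, 2472 lower), 2014 (1040 and 974) with normexp and the 75th percentile, and 3258 (1641 and 1617) with the replicate block, which has fewer degrees of freedom. Without scaling, 5872 were higher and 1142 lower, 83.7% higher against 50.8%. With 1 array left out, 1605 to 2202 were higher. Of the polyol list 2 genes were called with normexp and the 75th percentile. Of the phosphoinositide list, 7 as reported, 1 was called there, 3 with normexp and quantile normalization, 4 without a detection filter, 3 among genes above background on all 8 arrays, 2 with the replicate block, and 2 to 6 with 1 array left out. Of the osmolyte list, 3 as reported, 1 was called with normexp and the 75th percentile, 6 without scaling, 1 with the replicate block, and 1 to 3 with 1 array left out. Slc6a12 turned to 0.22 with normexp and the 75th percentile. The replicate block changed the call of none of the 7 genes. Blocked permutations of 4 pairs of arrays could not reach the threshold and were not run. Of 44 other named genes, 21 lost their call under at least 1 alternative with all arrays.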
